A study of Mus musculus with 8 samples.

Results

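The heme synthesis enzymes were followed here through 8 listed gene symbols, Alas1, Alas2, Alad, Uros, Urod, Cpox, Ppox and Fech. They were chosen by name and made up 8 of the 18790 named genes in the count tables. All 8 passed the filter on low counts that left 11965 genes for testing. The step between Alad and Uros has no listed symbol and was not analysed here. RNA came from femoral marrow of untreated C57BL/6 mice with the Csf1r-EGFP transgene, in which regulatory sequence of Csf1r, the gene of a macrophage growth factor receptor, drives green fluorescent protein (GFP). The first population, CD11b+, was sorted on the myeloid integrin CD11b, the macrophage surface proteins F4/80 and VCAM1, low GFP and absence of the neutrophil antigen Ly6G. The second, CD11b-, lacked CD11b and was positive for F4/80, VCAM1 and GFP. Each population had 4 biological replicates, sequenced with SmartSeq2, a full-length cDNA method for small amounts of RNA. The animals' age is not given in the sources.

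Heme is an iron-bearing porphyrin ring, the oxygen-binding group of hemoglobin and the working group of cytochromes, catalase and peroxidases. Its synthesis starts in the mitochondrion, where glycine and succinyl-CoA are joined to aminolevulinic acid, passes through the cytosol, and ends in the mitochondrion again with the insertion of iron. The starting step is run by Alas1 in most cell types and by Alas2 in red cell precursors, which make most of the heme formed in marrow.

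Total counts were 36604660 to 47951234 in CD11b+ libraries and 27462607 to 35160747 in CD11b- libraries. Levels are given as CPM, a gene's counts scaled to the library's total over named genes, and a count of 0 allowed up to 0.0627 to 0.110 CPM in a library (3 counts, counting error only). Both populations are labelled as macrophages in quotation marks, and their marker genes were summed to see what RNA they held. The 16 erythroid markers summed to 602 to 1261 CPM in CD11b+ libraries and 38656 to 52157 CPM in CD11b- libraries. The 12 neutrophil markers summed to 91028 to 115594 CPM in CD11b+ libraries and 235 to 1089.8 CPM in CD11b- libraries. The 7 eosinophil markers summed to 5315 to 16192 CPM in CD11b+ libraries and 65.3 to 384 CPM in CD11b- libraries. Of the eosinophil sum, Prg2 alone held 5020 to 15273 CPM in CD11b+ libraries and 20.4 to 331 CPM in CD11b- libraries. The erythroid sum was thus high in CD11b- and the granulocyte sums high in CD11b+, with no overlap. At an edgeR adjusted p of 0.05, all 16 erythroid markers were lower in CD11b+, against 15.0% of all tested genes. Of 12 neutrophil markers 10 were higher, and of 7 eosinophil markers 4, against 14.6% of tested genes. The others were not called, and of these Mmp8 and Ccr3 had the lower mean in CD11b+. The 11 B progenitor markers summed to 53.2 to 131 CPM in CD11b+ libraries and 1146 to 2317 CPM in CD11b- libraries. The 17 resident macrophage markers summed to 1808 to 2112 CPM in CD11b+ libraries and 1425 to 1887 CPM in CD11b- libraries, ranges that overlapped, and no marker of these lists was at 0 in all libraries of a population. In bulk samples such as these, fewer cells of a type and less RNA per cell cannot be told apart.

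Promoter windows are shown for the synthase genes, which moved in opposite directions, and for Cpox, which had the largest fall. RefSeq promoters were matched for 7 of the 8 genes in build GRCm38.p6, which is not the build mm9 named in the submitters' processing notes. Each line gives the 250 bases before the most upstream RefSeq start, 5′ to 3′ on the gene's strand. Capitals mark GATAA, the core letters bound by GATA factors, or CACCC, the core letters bound by the erythroid factor Klf1 and its relatives, read on either strand (TTATC and GGGTG on the other). No match of one motif overlapped a match of the other.
Alas1 (chr9:106247955-106248204, minus strand): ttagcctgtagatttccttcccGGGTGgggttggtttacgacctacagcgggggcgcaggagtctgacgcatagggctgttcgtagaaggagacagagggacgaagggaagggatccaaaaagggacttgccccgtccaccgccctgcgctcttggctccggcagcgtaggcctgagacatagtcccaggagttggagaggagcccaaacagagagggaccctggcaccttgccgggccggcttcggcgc
Alas2 (chrX:150547167-150547416, plus strand): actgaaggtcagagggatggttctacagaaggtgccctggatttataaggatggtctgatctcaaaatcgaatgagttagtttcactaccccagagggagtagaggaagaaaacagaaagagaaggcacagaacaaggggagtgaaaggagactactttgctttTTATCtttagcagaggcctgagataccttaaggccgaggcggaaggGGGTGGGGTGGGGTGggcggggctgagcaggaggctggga
Cpox (chr16:58669958-58670207, plus strand): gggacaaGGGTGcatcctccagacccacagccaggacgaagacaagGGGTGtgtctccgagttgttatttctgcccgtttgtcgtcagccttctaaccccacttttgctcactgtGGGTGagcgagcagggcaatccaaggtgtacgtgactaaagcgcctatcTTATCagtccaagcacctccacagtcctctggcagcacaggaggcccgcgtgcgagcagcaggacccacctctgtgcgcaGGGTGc
GATAA letters were found for Alas2 and Cpox, 2 of the 7 genes, against 23.0% of 27025 promoter windows of this length. In both they lay at bases 86 to 82 before the start. CACCC letters were found for Alas1, Alas2 and Cpox, 3 of the 7, against 51.3% of windows. Alas2 held them at bases 40 to 36, 35 to 31 and 30 to 26, and Alas1 at bases 228 to 224. Cpox held them at bases 243 to 239, 204 to 200, 135 to 131 and 6 to 2. These are letters in a window, not measured binding.

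Alas1 was higher in CD11b+ and the other 7 genes were lower, all past a Benjamini-Hochberg adjusted p of 0.05 in edgeR's quasi-likelihood test over all genes. The same test called 29.7% of all tested genes, 15.0% lower and 14.6% higher. The 7 lower genes fell by 13.5-fold to 36.3-fold, with a median log2 fold change of -4.23. Over all 8 genes the median was -4.14, while over all tested genes it was -0.01. All 7 lower genes were at least 8-fold lower, as were 4.18% of tested genes. For 8 of 8 genes the CD11b+ and CD11b- libraries did not overlap, as for 36.5% of tested genes.

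**Figure D1:**
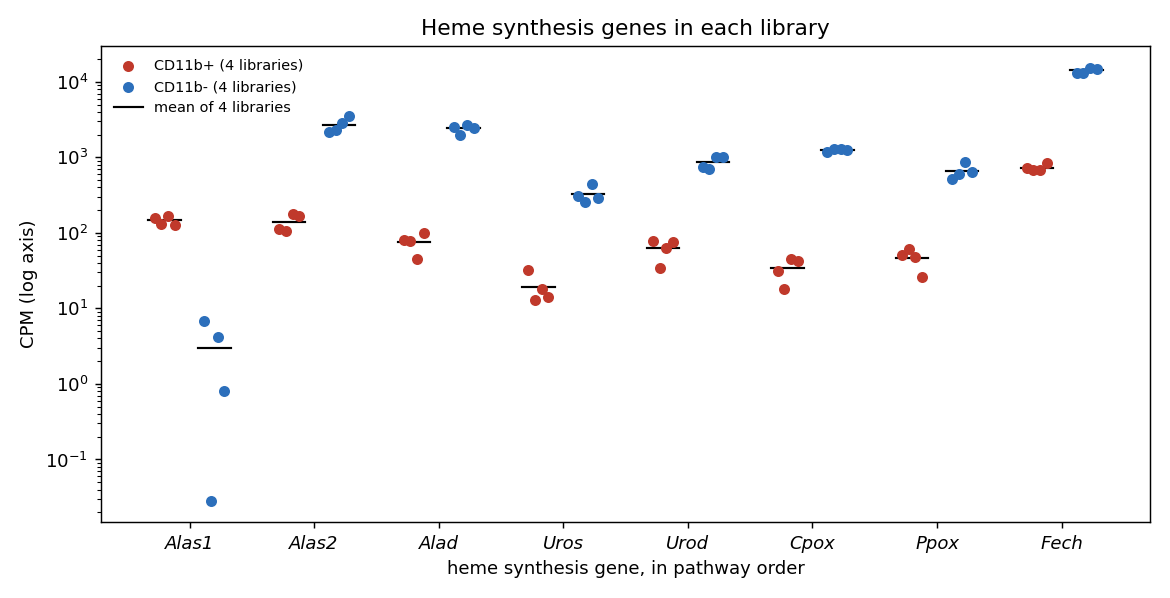
Level of each listed gene in CPM on a log axis, in pathway order, with a point for each of the 4 CD11b+ and 4 CD11b- libraries and a line at each mean. The CD11b+ points lie above the CD11b- points for Alas1 and below them for the other 7 genes.

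The starting step held the opposed pair. Alas1, the synthase of most tissues, had 159, 132, 168 and 126 CPM in CD11b+ replicates 1 to 4, against 6.73, 0.0286, 4.23 and 0.805 CPM in CD11b- replicates 1 to 4. The CD11b+ libraries lay close together and the CD11b- libraries were spread widely, with 191, 1, 137 and 22 counts in CD11b- replicates 1 to 4. Alas1 was 50.9-fold higher in CD11b+ (log2 fold change 5.67, SE 1.03, edgeR adjusted p = 0.00230). Its log2 fold change was 6.41 without CD11b- replicate 1 (edgeR adjusted p = 0.00299), and over the 8 fits that each drop 1 library the edgeR adjusted p ran from 0.000456 to 0.00672. In CD11b- replicates 1 to 4 the neutrophil markers summed to 1089.8, 599, 842 and 235 CPM and the eosinophil markers to 384, 258, 65.3 and 70.9 CPM. Their part in the Alas1 level was not tested.

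Alas2, the X-linked erythroid synthase, whose messenger RNA carries an iron-responsive element, had 113, 106, 179.6 and 165 CPM in CD11b+ replicates 1 to 4, against 2145, 2315, 2874 and 3528 CPM in CD11b- replicates 1 to 4. Every CD11b- library lay far above every CD11b+ library. Alas2 was 18.8-fold lower in CD11b+ (log2 fold change -4.23, SE 0.26, edgeR adjusted p = 3.83e-06).

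To weigh the isozyme genes against each other, levels were divided by transcript length (3399 bases for Alas1 and 2037 for Alas2, the longest transcript with a consensus coding sequence). Alas2 made up 54.2%, 57.4%, 64.0% and 68.6% of the per-kb sum in CD11b+ replicates 1 to 4, against at least 99.8% in each CD11b- library. Nearly all synthase signal in CD11b- was thus from Alas2, whereas both genes contributed in CD11b+. The mean share was 61.1% ± 6.48 in CD11b+ and 99.9% ± 0.0858 in CD11b- (SD, n = 4). Without division by length the CD11b+ share was 48.6%, and with the summed length of all annotated exons it was 70.6%. By the mean share Alas2 thus led in CD11b+ with either length, but not without division by length. The share is a description and was not tested.

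**Figure D2:**
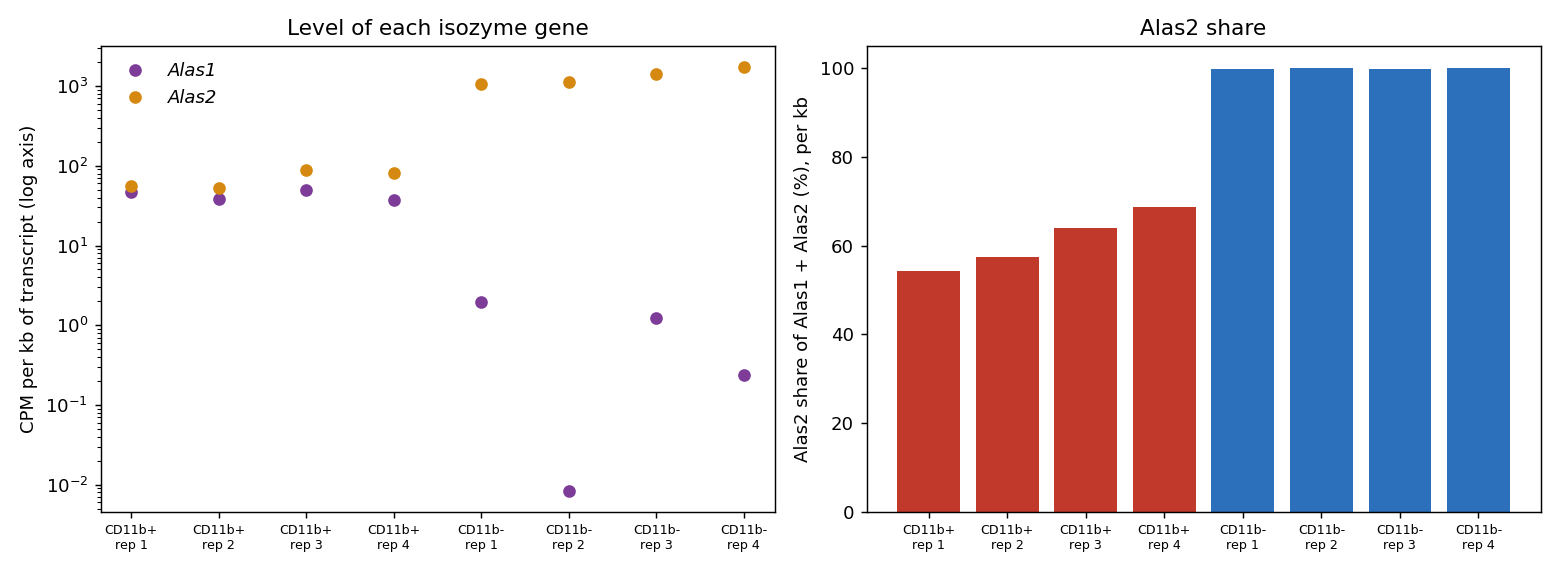
Left, Alas1 and Alas2 in CPM per kb of transcript on a log axis for each library; right, the Alas2 share of their sum in percent. The CD11b+ shares lie between 54.2% and 68.6%, and the CD11b- shares are all at least 99.8%.

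The 3 listed genes of the cytosolic steps fell. Alad, which joins aminolevulinic acid into porphobilinogen and is the enzyme poisoned by lead, had 80.2, 78.1, 44.7 and 101 CPM in CD11b+ replicates 1 to 4, against 2549, 1950.4, 2701 and 2451 CPM in CD11b- replicates 1 to 4. It was 31.0-fold lower in CD11b+ (log2 fold change -4.95, SE 0.28, edgeR adjusted p = 2.66e-06). Its lowest library was CD11b+ replicate 3, the library in which Alas2 was highest among the CD11b+ samples.

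Uros closes the linear tetrapyrrole into uroporphyrinogen III. It had 32.0, 13.1, 18.0 and 14.0 CPM in CD11b+ replicates 1 to 4, against 310.2, 260.0, 440.5 and 289 CPM in CD11b- replicates 1 to 4. CD11b+ replicate 1 stood above the other CD11b+ libraries, and none came near the CD11b- range. Uros was 16.5-fold lower in CD11b+ (log2 fold change -4.05, SE 0.35, edgeR adjusted p = 2.42e-05).

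Urod, which removes carboxyl groups from side chains of the ring, had 79.2, 34.3, 63.5 and 74.8 CPM in CD11b+ replicates 1 to 4, against 742, 701, 1004 and 1023 CPM in CD11b- replicates 1 to 4. The groups did not overlap, although the difference was the smallest of the 7, at 13.5-fold lower in CD11b+ (log2 fold change -3.75, SE 0.29, edgeR adjusted p = 1.27e-05).

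The genes of the closing mitochondrial steps also fell. Cpox, the coproporphyrinogen oxidase of the space between the mitochondrial membranes, had 30.8, 18.0, 45.1 and 41.9 CPM in CD11b+ replicates 1 to 4, against 1189, 1307, 1298 and 1257 CPM in CD11b- replicates 1 to 4. The CD11b- libraries lay within a narrow band, and the CD11b+ libraries were spread more widely for their level. Cpox was 36.3-fold lower in CD11b+ (log2 fold change -5.18, SE 0.30, edgeR adjusted p = 2.75e-06).

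Ppox, the protoporphyrinogen oxidase of the inner membrane, had 51.2, 61.6, 47.5 and 25.9 CPM in CD11b+ replicates 1 to 4, against 517, 594, 859.9 and 643 CPM in CD11b- replicates 1 to 4. Its highest CD11b+ library was replicate 2, in which Alas2, Uros, Urod and Cpox were each at their lowest. Ppox was 13.7-fold lower in CD11b+ (log2 fold change -3.78, SE 0.32, edgeR adjusted p = 1.87e-05).

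Fech, the ferrochelatase that inserts iron into protoporphyrin, had 725, 688, 684 and 837 CPM in CD11b+ replicates 1 to 4, against 13224, 13186, 15433 and 14968 CPM in CD11b- replicates 1 to 4. By itself it took 0.0684% to 0.0837% of all counts of named genes in CD11b+ libraries and 1.32% to 1.54% in CD11b- libraries. Fech was 18.9-fold lower in CD11b+, with the smallest standard error of the 8 genes (log2 fold change -4.24, SE 0.18, edgeR adjusted p = 1.35e-06).

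**Figure D3:**
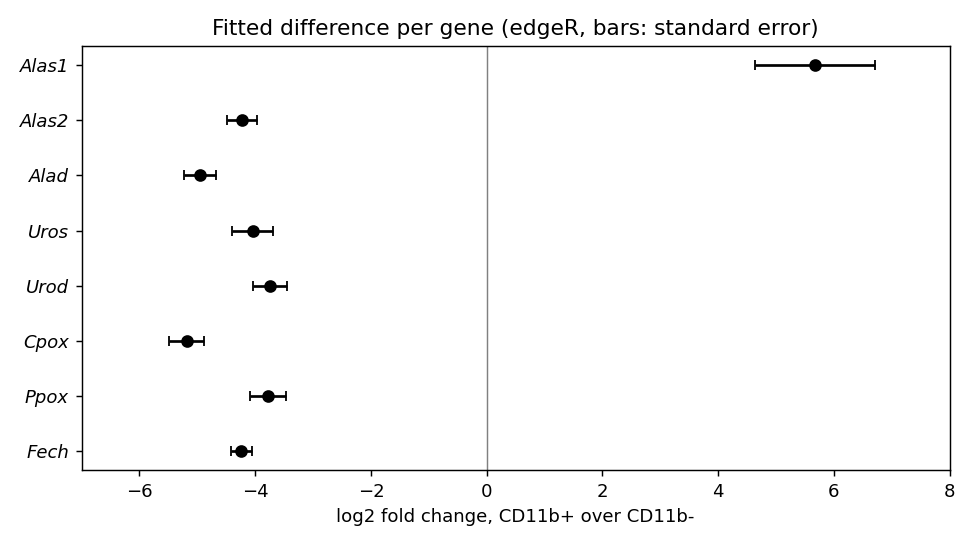
Fitted log2 fold change, CD11b+ over CD11b-, for each listed gene from edgeR, with the standard error as a bar. Alas1 lies at 5.67 and the other 7 genes between -5.18 and -3.75.

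Together the 7 lower genes took 0.0999% to 0.126% of counts in CD11b+ libraries and 2.03% to 2.46% in CD11b- libraries. Their summed CD11b+ mean was 4.96% of the CD11b- one, and gene by gene this ran from 2.69% for Cpox to 7.26% for Urod. For the 16 erythroid markers, which include none of the listed genes, it ran from 1.15% to 4.30%, and they fell by 22.7-fold to 85.0-fold. Of the most abundant of these, the carbonic anhydrase gene Car2 averaged 370.4 ± 121 CPM in CD11b+ libraries, against 13037 ± 3039 CPM in CD11b- libraries (SD, n = 4 here and in all averages that follow). The blood group gene Rhd averaged 117 ± 48.1 CPM in CD11b+ libraries, against 8333 ± 1333 CPM in CD11b- libraries. Whether the folds of enzymes and markers differ was not tested.

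The enzymes did not share 1 order over the CD11b+ libraries, where Alas2 and Cpox were highest in replicate 3, Uros and Urod in replicate 1, Ppox in replicate 2, and Alad and Fech in replicate 4. The erythroid markers summed to 1261, 704, 602 and 1064 CPM in CD11b+ replicates 1 to 4. In CD11b- the lowest library of each of the 7 lower enzymes was replicate 1 or 2, where Mpo, a granulocyte peroxidase, stood at 5827 and 3966 CPM. The part of either in those levels was not tested.

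Per kb of transcript the levels in CD11b+ ran, from high to low, Fech (112 ± 10.9), Alas2 (69.2 ± 18.1), Alad (60.9 ± 18.6), Alas1 (43.0 ± 6.02), Urod (42.3 ± 13.6), Ppox (25.6 ± 8.24), Cpox (11.0 ± 3.97) and Uros (10.9 ± 4.96) CPM per kb (SD, n = 4). Fech stood clear of its neighbour there, and each of the others overlapped the next in range. In CD11b- they ran Fech (2161 ± 178), Alad (1935 ± 261), Alas2 (1333 ± 307), Urod (583 ± 114), Cpox (408 ± 17.3), Ppox (359 ± 80.8), Uros (184 ± 45.2) and Alas1 (0.867 ± 0.915) CPM per kb (SD, n = 4). There Fech overlapped Alad, Alad overlapped Alas2 and Cpox overlapped Ppox, and the remaining neighbours did not overlap. Both orders depended on the length used. With the summed length of all annotated exons, Alas2 (58.6 ± 15.4 CPM per kb) came before Fech (53.0 ± 5.17) in CD11b+ with overlapping ranges, and in CD11b- Alad (1289.5 ± 174) and Alas2 (1130.0 ± 260.0) came before Fech (1026 ± 84.4, SD, n = 4).

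Of the per-kb sum of the 7 genes other than Alas1, Fech made up 33.7% ± 1.75 in CD11b+ and 31.2% ± 1.35 in CD11b- (SD, n = 4), and its ranges overlapped. Alad made up 11.1% to 21.6% in CD11b+ libraries and 25.7% to 31.7% in CD11b- libraries, and Cpox 2.01% to 4.53% in CD11b+ libraries and 5.35% to 6.95% in CD11b- libraries. Both thus took a smaller part of the sum in every CD11b+ library than in any CD11b- library, also with the summed exon length.

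Where a gene overlaps a listed gene on the opposite strand, reads of the shared bases cannot be assigned by strand, since SmartSeq2 does not mark strand. How such reads were counted by the submitters is not known here. In GENCODE M21, Ppox shares 791 exonic bases with B4galt3, Alas2 shares 311 with Apex2, and Cpox shares 204 with Gpr15. B4galt3 went the other way from Ppox and averaged 412 ± 58.8 CPM in CD11b+ libraries, against 174 ± 46.6 CPM in CD11b- libraries. Apex2 averaged 19.8 ± 5.28 CPM in CD11b+ libraries, against 55.2 ± 18.7 CPM in CD11b- libraries. Gpr15 ran from 0 to 2.12 CPM in CD11b+ libraries and 0 to 6.42 CPM in CD11b- libraries. Alas1 shares 465 bases with the antisense gene 4930500F10Rik, which was not analysed here.

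The genes whose profile over the 8 libraries was nearest to that of each synthase were found by the root mean square distance between gene-centred log2(CPM + 1) values. Nearest to Alas1 were the myeloid surface receptor gene Cd300lb (distance 0.46), Mtus1 (0.47) and Lbp, which encodes the lipopolysaccharide-binding protein (0.47). Mtus1 averaged 178 ± 17.5 CPM in CD11b+ libraries, against 3.04 ± 4.54 CPM in CD11b- libraries. Among those nearest to Alas2 were the scavenger receptor gene Cd36 (0.23) and the dehydrogenase gene Dhrs11 (0.25). Dhrs11 averaged 25.3 ± 6.15 CPM in CD11b+ libraries, against 636 ± 95.4 CPM in CD11b- libraries. Among the other enzymes Fech was nearest to Alas2 (0.26), and Alas1 lay 5.04 away from it.

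Genes that feed the pathway with substrate and iron were mostly lower or not called. Of 15 mitochondrial carrier and cofactor genes tested, 8 were lower, 1 was higher and 6 were not called. Their median log2 fold change was -1.05. Over all tested genes 15.0% were lower, 14.6% were higher and the median was -0.01. Slc25a37, the mitoferrin that carries iron into erythroid mitochondria, averaged 87.8 ± 4.18 CPM in CD11b+ libraries, against 1649 ± 268 CPM in CD11b- libraries, 18.4-fold lower (log2 fold change -4.20, SE 0.19, edgeR adjusted p = 1.35e-06). The glycine carrier gene Slc25a38 was 16.6-fold lower, the mitochondrial membrane protein gene Fam210b 26.7-fold, the inner membrane transporter gene Abcb10 11.5-fold and the glutathione carrier gene Slc25a39 5.43-fold (edgeR adjusted p of at most 1.38e-05 each). Suclg1, a subunit of the enzyme that interconverts succinyl-CoA and succinate, was the 1 gene called higher and averaged 120.1 ± 19.3 CPM in CD11b+ libraries, against 76.3 ± 13.3 CPM in CD11b- libraries (log2 fold change 0.69, SE 0.19, edgeR adjusted p = 0.0209). Its call was lost without CD11b+ replicate 4 (edgeR adjusted p = 0.0572), and over 16 alternatives the adjusted p ran from 0.00555 to 0.0595.

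Iron-sulfur cluster assembly supplies the cluster of Fech and of iron-sensing proteins. Of its 12 tested genes, 9 were lower, against 15.0% of all tested genes, and 1 was higher, against 14.6%. The other 2 were not called, and the list's median log2 fold change was -1.29. The glutaredoxin gene Glrx5 averaged 223 ± 49.2 CPM in CD11b+ libraries, against 3532 ± 359.7 CPM in CD11b- libraries, 15.5-fold lower (log2 fold change -3.95, SE 0.22, edgeR adjusted p = 2.31e-06). The late-acting factor genes Isca1 and Bola3 were 10.1-fold and 6.80-fold lower. Nfu1, another late-acting factor, was the gene called higher and averaged 180.0 ± 4.13 CPM in CD11b+ libraries, against 53.4 ± 6.77 CPM in CD11b- libraries, 3.47-fold higher (log2 fold change 1.80, SE 0.14, edgeR adjusted p = 1.18e-05).

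The pair of assembly genes not called were Lyrm4 and Iba57. Lyrm4, a partner of the sulfur-donating enzyme, averaged 163 ± 57.0 CPM in CD11b+ libraries, against 322 ± 121 CPM in CD11b- libraries (edgeR adjusted p = 0.0757). Without CD11b- replicate 4 it was called lower (edgeR adjusted p = 0.00795), as it was without CD11b+ replicate 1 (edgeR adjusted p = 0.0416). Iba57 had 0, 0, 1.67 and 0 CPM in CD11b+ replicates 1 to 4, against 8.13, 19.3, 8.90 and 8.16 CPM in CD11b- replicates 1 to 4 (edgeR adjusted p = 0.0953), and was called lower without CD11b+ replicate 3 (edgeR adjusted p = 0.00110), the CD11b+ library that held its reads. Over all alternatives the adjusted p ran from 0.00795 to 0.333 for Lyrm4 and from 0.000368 to 0.236 for Iba57. Lyrm4 was called lower in 6 of 16 alternatives and Iba57 in 4 of 15. For both genes these included DESeq2, limma and the replicate number as a block.

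Of 11 tested regulators of the pathway, 7 were lower, against 15.0% of all tested genes, and none was higher, against 14.6%. The other 4 were not called, and the list's median log2 fold change was -2.42. The erythroid activator gene Klf1 averaged 41.8 ± 29.5 CPM in CD11b+ libraries, against 3046 ± 404 CPM in CD11b- libraries, 71.1-fold lower (log2 fold change -6.15, SE 0.56, edgeR adjusted p = 3.06e-05). Tal1 was 39.7-fold lower, Zfpm1, whose product partners Gata1, 25.3-fold, Gata1 itself 13.4-fold and Nfe2 2.01-fold. Eif2ak1, the kinase that senses heme shortage in red cell precursors, averaged 108 ± 15.5 CPM in CD11b+ libraries, against 1172 ± 141 CPM in CD11b- libraries, 10.6-fold lower (log2 fold change -3.40, SE 0.18, edgeR adjusted p = 2.23e-06).

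The 4 regulators not called were Aco1, Ireb2, Bach1 and Foxo1. Aco1 and Ireb2 encode the iron regulatory proteins, which bind the element in Alas2 messenger RNA. Aco1 averaged 32.0 ± 8.44 CPM in CD11b+ libraries, against 40.8 ± 14.4 CPM in CD11b- libraries (edgeR adjusted p = 0.562). Ireb2 averaged 11.2 ± 7.81 CPM in CD11b+ libraries, against 14.5 ± 5.74 CPM in CD11b- libraries (edgeR adjusted p = 0.765). For both genes the CD11b+ and CD11b- ranges overlapped. Bach1, a heme-binding repressor, averaged 3.34 ± 2.10 CPM in CD11b+ libraries, against 8.13 ± 3.23 CPM in CD11b- libraries (edgeR adjusted p = 0.280). Foxo1 averaged 2.10 ± 1.60 CPM in CD11b+ libraries, against 11.9 ± 7.59 CPM in CD11b- libraries (edgeR adjusted p = 0.130). It was called lower without CD11b- replicate 3 (edgeR adjusted p = 0.0405) and with DESeq2 (DESeq2 adjusted p = 0.0487). Over alternatives its adjusted p ran from 0.0405 to 0.411.

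Of 6 tested genes of heme breakdown and export, 5 were lower, against 15.0% of all tested genes, and 1 was higher, against 14.6%. Their median log2 fold change was -1.11. Blvrb, a biliverdin reductase abundant in red cells, averaged 51.0 ± 11.4 CPM in CD11b+ libraries, against 1472 ± 149 CPM in CD11b- libraries, 28.1-fold lower (log2 fold change -4.81, SE 0.22, edgeR adjusted p = 1.35e-06). The porphyrin exporter gene Abcg2 was 21.0-fold lower, the inducible heme oxygenase gene Hmox1 2.19-fold and the heme transporter gene Slc48a1 2.13-fold. The constitutive heme oxygenase gene Hmox2 was the 1 called higher and averaged 141 ± 13.8 CPM in CD11b+ libraries, against 103 ± 23.5 CPM in CD11b- libraries, 1.42-fold higher (log2 fold change 0.51, SE 0.17, edgeR adjusted p = 0.0454). That call held in 4 of 16 alternatives and was lost with any library but CD11b- replicate 4 left out, and the adjusted p ran from 0.0269 to 0.132 over the alternatives.

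Heme proteins outside globin split the other way. Of 8 tested genes 5 were higher, against 14.6% of all tested genes, and 2 were lower, against 15.0%. The remaining 1 was not called, and the list's median log2 fold change was 3.50. The granule peroxidase gene Mpo averaged 42479 ± 8180.0 CPM in CD11b+ libraries, against 2916 ± 2448 CPM in CD11b- libraries, 15.2-fold higher (log2 fold change 3.93, SE 0.69, edgeR adjusted p = 0.00187). The eosinophil peroxidase gene Epx averaged 1988 ± 567 CPM in CD11b+ libraries, against 33.3 ± 35.1 CPM in CD11b- libraries, 63.2-fold higher (log2 fold change 5.98, SE 1.35, edgeR adjusted p = 0.00766). Without CD11b- replicate 1 the Epx difference was 99.2-fold, and without both CD11b- libraries highest in Mpo it was 617-fold for Epx and 44.9-fold for Mpo. The phagocyte oxidase subunit genes Cybb and Cyba were 29.5-fold and 8.40-fold higher, and the cyclooxygenase gene Ptgs1 16.0-fold (edgeR adjusted p = 0.0194), or 33.8-fold without CD11b- replicate 1. The catalase gene Cat averaged 227 ± 23.7 CPM in CD11b+ libraries, against 1007 ± 124 CPM in CD11b- libraries, 4.33-fold lower (log2 fold change -2.12, SE 0.16, edgeR adjusted p = 1.04e-05), and Cyc1, the cytochrome c1 gene of the respiratory chain, was 1.53-fold lower (edgeR adjusted p = 0.00338). Cycs, the cytochrome c gene, ran from 3.60 to 6.40 CPM in CD11b+ libraries and 1.54 to 3.38 CPM in CD11b- libraries and was not called (edgeR adjusted p = 0.414). Granulocyte marker sums were high in CD11b+ and erythroid ones high in CD11b-, as given above, and their part in these levels was not tested.

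**Figure D4:**
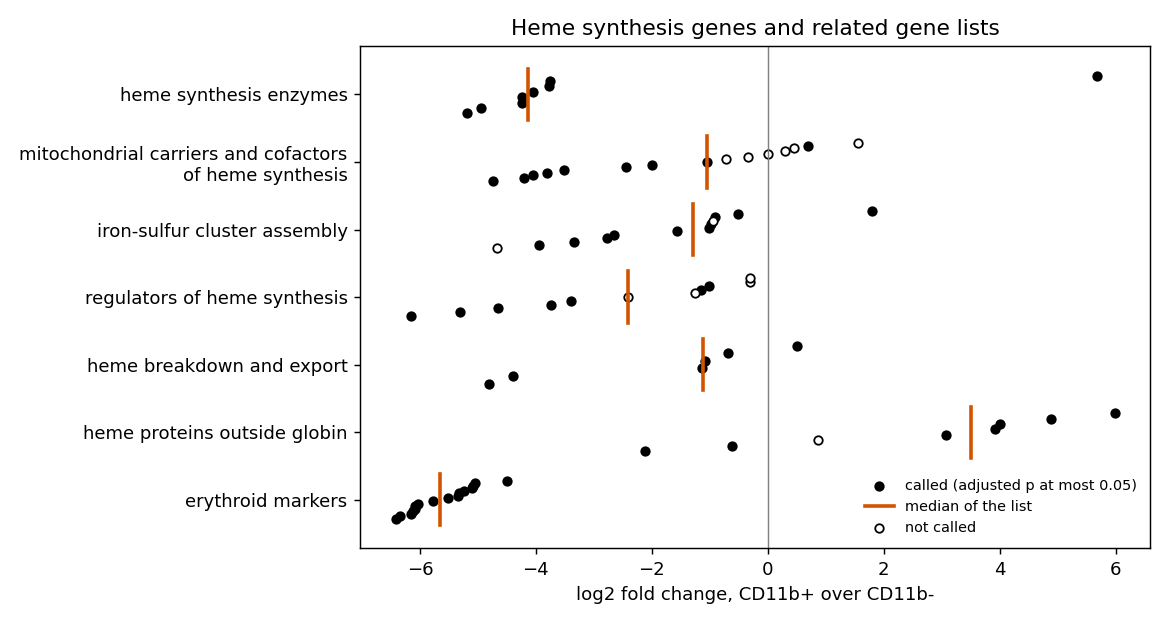
Fitted log2 fold change, CD11b+ over CD11b-, for the tested genes of the enzyme list and of related lists, with a mark at each list's median. The enzymes hold 7 points between -5.18 and -3.75 and Alas1 at 5.67, and the medians of the related pathway lists run from -2.42 for regulators to 3.50 for heme proteins outside globin.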

How the data were processed

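The authors deposited whole-number counts per gene symbol for each library, in files named FPKM, and 1 CPM table, which the counts divided by their total gave back within 0.0005. The submitters' processing notes list TopHat2, HTSeq 0.10.0, DESeq2 and mm9 with no role. Of 18817 rows, 27 carry numbers for symbols (0.205% to 0.514% of counts) and were left out, so CPM here is scaled to named genes.

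Counts were tested with edgeR 4.0.16 in R 4.3.3 (TMM, filterByExpr with a minimum count of 10 and total of 15, quasi-likelihood test, no covariate, Benjamini-Hochberg at 0.05). The fit was also run on simulated counts in which far fewer genes changed than were called here. That run cannot show the error rate for these data. Standard errors were worked back from the F statistic. Biological replicates set the spread behind each p-value. Per-kb levels used GENCODE M21 transcripts matched by symbol. Alternatives were DESeq2 1.42.0, limma 3.58.1 on log2(CPM + 1), RLE factors, no scaling, no low-count filter, at least 10 CPM in 4 libraries, the replicate number as a block, a 2-fold minimum and each library left out. Summed exon length for the enzymes' shares and levels, and omission of both CD11b- libraries highest in Mpo, were added after seeing the data. Enzymes and lists were chosen with earlier results of these data known. Named were the enzymes, the 3 called genes of largest change and 2 most abundant of each related list, the 2 most abundant of each marker list and the 3 genes nearest each synthase. Suclg1, Nfu1, Lyrm4, Iba57, Gata1, Eif2ak1, Aco1, Ireb2, Bach1, Foxo1, Hmox2, Cat, Cyc1, Cyba, Cycs, Vcam1, Adgre1, Csf1r, Fcna and C1qc were named after their values were seen. Flvcr1 and Flvcr2 were not analysed here, and 2 genes that the rule names are not reported here.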

Additional observations from a re-analysis of the deposited data

Results flagged for a closer look

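In 11 of 120 groups of 4 libraries examined, 1 library stood far from the other 3 relative to the group's range. Chance alone gives such a gap in about 1 of 20 groups. None of the 8 listed enzymes was among the flagged genes. Of the flagged genes, Foxo1, Bach1, Lyrm4, Iba57, Hmox2 and Cycs were named after their values were seen. The share of groups flagged can therefore not be set against that of chance. Nfe2 was high in CD11b- replicate 3, at 1372 CPM (others 957 to 1014 CPM). Foxo1 was low in CD11b- replicate 3, at 0.587 CPM (others 14.7 to 16.3 CPM), and Bach1 was low in CD11b- replicate 2, at 3.29 CPM (others 9.58 to 9.88 CPM). Lyrm4 was low in CD11b- replicate 4, at 141 CPM (others 374 to 396 CPM). Iba57 was seen in CD11b+ replicate 3 at 1.67 CPM and was at 0 in the other 3 CD11b+ libraries, and Iba57 was high in CD11b- replicate 2, at 19.3 CPM (others 8.13 to 8.90 CPM). Hmox2 was low in CD11b+ replicate 2, at 121 CPM (others 147 to 149.7 CPM). Cycs was high in CD11b+ replicate 4, at 6.40 CPM (others 3.60 to 3.72 CPM). Cd36 was high in CD11b+ replicate 4, at 57.4 CPM (others 31.9 to 36.0 CPM). Ngp was high in CD11b- replicate 3, at 535 CPM (others 90.6 to 133 CPM). Ear6 was seen in CD11b- replicate 2 at 0.0857 CPM and was at 0 in the other 3 CD11b- libraries. That level is no higher than a count of 0 allowed in that library. With 3 libraries at 0, as for Iba57 in CD11b+ and Ear6 in CD11b-, any level in the remaining library is flagged.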

How the results depend on the processing

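Each of the 8 enzymes kept its direction and call in all 16 alternatives fitted for it, and the counts of 7 lower and 1 higher held in each, also with a 2-fold minimum. Alas1 moved most, from 38.5-fold to 92.0-fold higher, with a log2 fold change of 6.52 under the replicate block (edgeR adjusted p = 0.00699), and the cause was not tested. Whether the replicate numbers pair the libraries could not be told, as correlations of same-numbered deviations were weak (0.0197 to 0.0643). Each CD11b- library correlated best with the CD11b+ library of its own number, but CD11b+ replicates 1 and 3 correlated best with another number. The block left 3195 calls over all genes, against 3549 without it, and ended the calls of Suclg1 (edgeR adjusted p = 0.0595) and Hmox2 (edgeR adjusted p = 0.0603). Calls over all genes numbered 3035 to 3418 with each library left out and 4247 with DESeq2. Omitting both CD11b- libraries highest in Mpo ended the calls of Suclg1 (edgeR adjusted p = 0.0502), Hmox2 (0.132) and Slc40a1 (0.0583). The Alas2 share of CD11b+ was 48.6% without length, 70.6% with summed exon length, and 58.6% to 63.3% with each library left out. In CD11b- replicates 1 to 4 Alas1 had 191, 1, 137 and 22 counts, at total counts of 28517750, 35160747, 32542279 and 27462607. The part of depth in these Alas1 counts was not tested.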

Other observations

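The other marker genes named by rule had these levels (SD, n = 4). Of neutrophil markers, the granule protein gene Ngp averaged 62702 ± 11281 CPM in CD11b+ libraries, against 220.0 ± 211 CPM in CD11b- libraries, and the elastase gene Elane averaged 20930.3 ± 4246 CPM in CD11b+ libraries, against 333 ± 346 CPM in CD11b- libraries. Of eosinophil markers, the major basic protein gene Prg2 averaged 10797 ± 4256 CPM in CD11b+ libraries, against 147 ± 144 CPM in CD11b- libraries, and Ear6 averaged 192 ± 117 CPM in CD11b+ libraries. Of 16 resident macrophage markers tested, 4 were higher in CD11b+, against 14.6% of all tested genes, and 2 were lower, against 15.0%. The other 10 were not called, and the list's median log2 fold change was -0.30. Higher beside Slc40a1 were Vcam1 (3.84-fold) and Adgre1 (4.10-fold), which encode surface proteins used in both sorts, and Csf1r (2.42-fold). Regulatory sequence of Csf1r drives the GFP that was sorted as low in CD11b+ and as positive in CD11b-. Lower were Fcna (3.22-fold) and the complement gene C1qc (1.74-fold). The apolipoprotein gene Apoe averaged 708 ± 115 CPM in CD11b+ libraries, against 743 ± 125 CPM in CD11b- libraries, which did not pass the test (edgeR adjusted p = 0.924). The iron exporter gene Slc40a1 averaged 385 ± 52.0 CPM in CD11b+ libraries, against 249 ± 56.9 CPM in CD11b- libraries, 1.60-fold higher (edgeR adjusted p = 0.0166, and 0.0523 without CD11b+ replicate 2, with a range from 0.00228 to 0.0583 over alternatives). Of B progenitor markers, Cd79b, a part of the B cell receptor, ran from 39.9 to 80.3 CPM in CD11b+ libraries and 190.1 to 425 CPM in CD11b- libraries.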
